A study of Mus musculus with 12 samples.

Results

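Adrenal glands of 10-day-old mice carrying 1 copy of a Ftz-F1 transgene were compared with those of wild-type littermates of the same age and, per the series' design, the same sex, on 6 of the 12 arrays of the series. These 6 arrays were chosen by their labels, which give an age of 10 days and 1 transgene copy. They hold 3 pairs, each of 1 transgenic mouse of line #56 (YAC, heterozygous) and 1 wild-type littermate. Transgenic mouse 11 was paired with wild-type mouse 12, 13 with 14, and 15 with 16. Pairs 11 and 13 were male and pair 15 was female. Each pair was hybridized on 2 arrays with the dyes Cy3 and Cy5 exchanged. The other 6 arrays hold 3 pairs of 4-month-old mice with 2 transgene copies (homozygous, line #56) and their littermates, so age and copy number change together between the groups. All transgenic mice come from 1 line, and the labels used here name no other treatment.

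Ftz-F1 is the older name of Nr5a1, the gene of SF-1. This nuclear receptor switches on the genes that turn cholesterol into steroid hormones and is required for the adrenal cortex to form, whereas the medulla holds chromaffin cells, which come from the neural crest and make catecholamines. In the young mouse a fetal layer of the cortex, the X-zone, lies beside the medulla.

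All values below are log2 ratios between the mice of a pair, after a curve of ratio against spot signal was subtracted from each array. The value of a pair is the mean of its 2 arrays, and a gene's mean is over the 3 pairs, with the standard deviation (SD) between pairs. A ratio of 1 is a difference of 2-fold. The arrays of a pair run in the same direction. No source used here says which mouse is the numerator of the ratio, so "positive" and "negative" are the signs as deposited. Because these are whole glands, fewer cells of a type and less RNA per cell cannot be told apart.

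Of 25344 spots, 4.52% to 6.00% were empty on the 6 arrays, and 21513 features with values in both age groups were tested, 17882 of them named genes. Before the curve was subtracted the arrays of a pair correlated at r = -0.10 (pair 11), -0.50 (pair 13) and -0.35 (pair 15) across spots. After it, r was 0.30, -0.00 and 0.20, and with each dye orientation's own mean removed as well it was 0.52, 0.35 and 0.56. Probes of the cortex and medulla gave signal, with recovered spot signals of 15866 for Star and 14257 for Cyp11a1, which act in steroid synthesis, and 50684 for Chga (near the scanner's limit) and 1916 for Th of chromaffin cells, where the median over all probes was 295.

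The targeted gene, Nr5a1, had ratios of -0.57 in pair 11, -0.65 in pair 13 and -0.79 in pair 15. The 3 values lay close together, and Nr5a1 was negative on all 6 arrays. Its mean was -0.67 ± 0.11 (SD, n = 3), with a limma adjusted p of 0.327 over all features. Read as transgenic over wild type, Nr5a1 transcript would be lower in the transgenic gland, and read the other way it would be higher. No source used here says whether the probe also reads transgene transcript.

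No gene passed an adjusted p of 0.05 at 10 days in limma's fit, 0 of 21513 features (0%), and the smallest adjusted p was 0.156. At an unadjusted p under 0.05 there were 915 positive features (4.25%) and 879 negative features (4.09%). The same sign on all 6 arrays was seen for 849 positive (3.95%) and 822 negative features (3.82%). The genes described next are the 14 in each direction with the smallest p among named genes that had the same sign on all 6 arrays. That rule used the ten-day ratios, so their signs and sizes are a description. Their means ran from 0.65 to 1.89 in the positive set and from -1.88 to -0.59 in the negative set, with adjusted p between 0.156 and 0.327 in both.

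Among the positive genes, Gal encodes the neuropeptide galanin and had ratios of 1.68 in pair 11, 1.09 in pair 13 and 0.76 in pair 15. Its mean was 1.17 ± 0.47, with pair 11 the highest. Npy2r encodes a receptor for neuropeptide Y and had 0.94, 0.86 and 0.72 in pairs 11, 13 and 15. Its mean of 0.84 ± 0.11 had a small spread between pairs. Scg5 encodes 7B2, a granule protein that assists a prohormone convertase, and had 0.59, 0.86 and 1.01, a mean of 0.82 ± 0.21. Stmn3, a neuronal regulator of microtubules, had a mean of 0.89 ± 0.31, and Kcnc4, a voltage-gated potassium channel, 0.65 ± 0.17. Lrrc4b, a synaptic adhesion protein, had a mean of 0.70 ± 0.14.

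The positive gene with the smallest p was Gper1, a membrane receptor that responds to estrogen, with 1.42 in pair 11, 0.95 in pair 13 and 1.16 in pair 15. All 3 pairs lay near its mean of 1.18 ± 0.24. Slc35d3, a transporter of the nucleotide sugar family, had 0.94, 1.06 and 1.17, a mean of 1.06 ± 0.12. Nap1l5, an imprinted gene of the nucleosome assembly family, had the tightest values of the set, 0.77, 0.72 and 0.75 (mean 0.75 ± 0.02). Hhat, the enzyme that attaches palmitate to Hedgehog proteins, had 0.84, 0.79 and 0.43 (mean 0.68 ± 0.22). Samt3 had a mean of 0.91 ± 0.10.

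Cox8b, the muscle and brown fat form of a cytochrome c oxidase subunit, had 1.21 in pair 11, 1.69 in pair 13 and 2.75 in pair 15 (mean 1.89 ± 0.79). The female pair was the highest, and there the arrays differed, with 4.79 when the transgenic sample was in Cy3 and 0.72 when it was in Cy5. Srl, sarcalumenin, a calcium-binding protein of the sarcoplasmic reticulum, had a mean of 0.76 ± 0.09. Chchd10, a mitochondrial protein, had 1.46, 0.93 and 0.52 (mean 0.97 ± 0.47), highest in pair 11.

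The negative set was led by Hdc, histidine decarboxylase, the enzyme that makes histamine. Hdc had ratios of -1.08 in pair 11, -1.48 in pair 13 and -1.90 in pair 15, a mean of -1.49 ± 0.41. Top1mt, the mitochondrial DNA topoisomerase, had -0.76, -1.75 and -1.68 (mean -1.40 ± 0.55), with pair 11 nearer to 0 than the others. With all pairs, Top1mt had a limma adjusted p of 0.156. Without pair 11, it had a mean of -1.71 and a limma adjusted p of 0.0359, the only call that leaving out a pair gave. Leaving out the pair nearest to 0 raises the size of the mean and narrows the spread, so that call is a description. The spread in the fit is shared with the 4-month pairs, where the SD of Top1mt was 0.01. Mgam, the intestinal enzyme maltase-glucoamylase, had -1.91, -0.96 and -2.76, and its SD of 0.90 was the largest of the 28 genes. Pla1a, a phospholipase that acts on phosphatidylserine, had -1.89, -1.54 and -1.06 (mean -1.50 ± 0.42).

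Gja1 encodes a connexin that forms gap junctions between cortical cells. Its ratios were -1.17 in pair 11, -0.76 in pair 13 and -0.68 in pair 15, a mean of -0.87 ± 0.26. Col5a3, a fibrillar collagen chain, had -0.39, -1.41 and -1.30, with pair 11 nearest to 0. Opn3, a non-visual opsin, and Tbrg1, a growth inhibitor that acts through p53, were the most even, with SDs of 0.06 each around means of -0.95 and -0.93. The translation initiation subunit Eif3f had a mean of -0.83 ± 0.21, and D2hgdh, which oxidizes D-2-hydroxyglutarate, -0.59 ± 0.14. Slc38a5, an amino acid transporter for glutamine, had a mean of -0.72 ± 0.14, and Cwf19l1 -0.87 ± 0.33. Brox (-0.72 ± 0.14) and Sh3tc2 (-0.81 ± 0.22) were negative on all 6 arrays but near 0 on some of them. Brox was at -0.0849 and -0.105 on the arrays of pairs 11 and 15 with the transgenic sample in Cy3, and Sh3tc2 was at -0.03 on that array of pair 15.

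**Figure D1:**
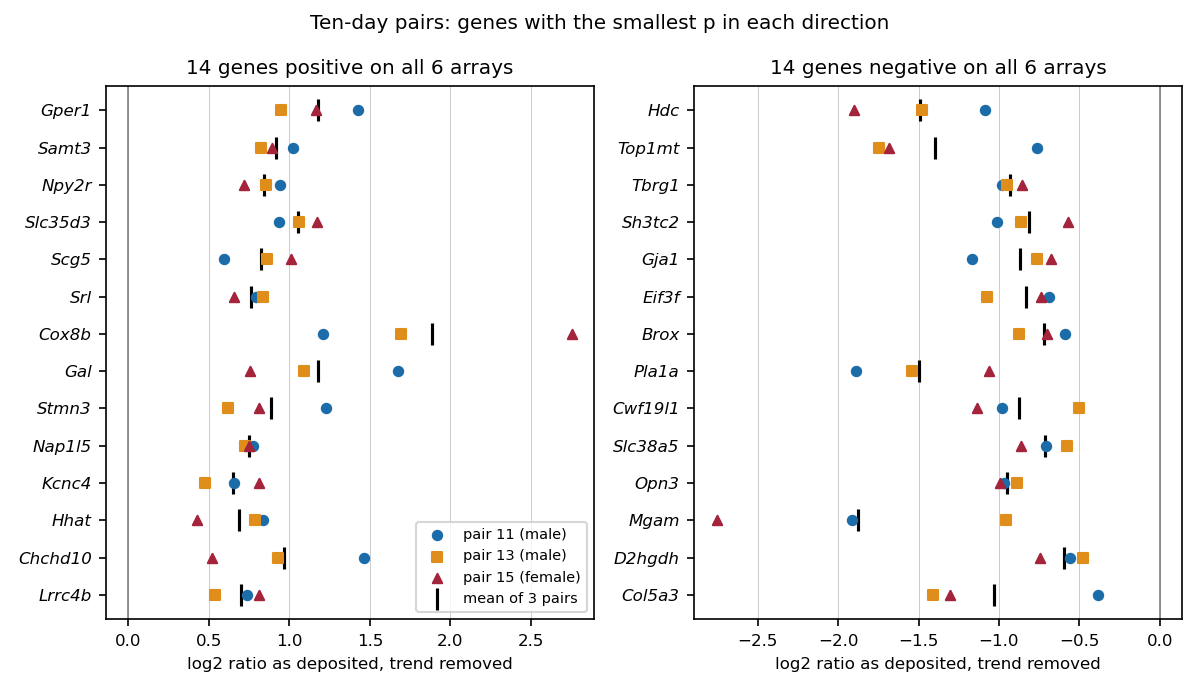
Log2 ratios as deposited, with the trend removed, of the 14 genes positive (left) and the 14 negative (right) on all 6 ten-day arrays that had the smallest p. Circles are pair 11, squares pair 13 (both male), triangles pair 15 (female), and black bars the mean of the 3 pairs; Cox8b (mean 1.89) and Mgam (mean -1.88) lie farthest from 0, and Nap1l5 and Opn3 show the least spread.

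A ratio of at least 1 in size in every pair was seen for 6 of the 17463 named genes with 3 values, a set picked after its values were seen. Cox8b, Hdc and Pla1a are among them. Ly6d, a small surface protein of lymphoid and epithelial cells, had 1.51 in pair 11, 2.68 in pair 13 and 3.02 in pair 15, and its mean of 2.40 ± 0.79 had an adjusted p of 0.327. Gpt2, an alanine aminotransferase, had a mean of -1.18 ± 0.17, and Aif1l, a calcium-binding protein that bundles actin, -1.13 ± 0.13.

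SF-1 binds as a monomer to a short element around AAGGTCA or AAGGCCA, so the 250 bases before the start of each gene were searched for these letters on both strands. RefSeq (GRCm38.p6) gave an upstream sequence for 24 of the 28 genes. AAGGCCA was found in 4 of the 13 positive genes with a sequence (Gal, Gper1, Hhat and Lrrc4b) and in 1 of the 11 negative genes (Brox). Among the 17593 windows of the genes tested 4.92% held AAGGCCA, among all 32851 windows 5.24%. AAGGTCA was in none of the 25 windows of the 28 genes, in 3.44% of those of the genes tested and in 4.08% of all windows. A match is only a run of letters, and these shares are given without a test. The matching positive genes are shown with Hdc, which held neither motif and stood out in both dye orientations as described next, and with the matching window of Brox. Capitals mark AAGGCCA, or TGGCCTT where it lies on the opposite strand, 5′ to 3′ in the direction of the gene.
Gal (chr19:3414545-3414794, minus strand): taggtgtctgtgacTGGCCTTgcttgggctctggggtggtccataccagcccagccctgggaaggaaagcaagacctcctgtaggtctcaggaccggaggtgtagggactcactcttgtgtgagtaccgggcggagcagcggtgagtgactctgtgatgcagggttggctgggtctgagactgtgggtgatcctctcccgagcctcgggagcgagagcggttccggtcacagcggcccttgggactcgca
Gper1 (chr5:139422929-139423178, plus strand): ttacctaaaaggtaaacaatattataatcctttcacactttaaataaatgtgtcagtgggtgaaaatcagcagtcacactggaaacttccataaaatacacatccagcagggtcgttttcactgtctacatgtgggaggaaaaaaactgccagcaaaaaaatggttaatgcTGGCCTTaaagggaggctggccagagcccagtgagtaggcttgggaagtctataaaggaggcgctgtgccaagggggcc
Hhat (chr1:192771220-192771469, minus strand): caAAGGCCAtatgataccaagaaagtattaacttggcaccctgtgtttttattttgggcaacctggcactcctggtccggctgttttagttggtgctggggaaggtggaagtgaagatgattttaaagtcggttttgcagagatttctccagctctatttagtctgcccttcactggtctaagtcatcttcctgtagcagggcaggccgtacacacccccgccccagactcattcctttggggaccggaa
Lrrc4b (chr7:44442237-44442486, plus strand): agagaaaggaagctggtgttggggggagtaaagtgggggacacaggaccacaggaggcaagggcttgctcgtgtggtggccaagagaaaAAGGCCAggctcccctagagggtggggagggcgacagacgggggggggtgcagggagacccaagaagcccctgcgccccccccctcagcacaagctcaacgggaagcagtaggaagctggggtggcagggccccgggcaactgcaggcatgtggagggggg
Hdc (chr2:126618679-126618928, minus strand): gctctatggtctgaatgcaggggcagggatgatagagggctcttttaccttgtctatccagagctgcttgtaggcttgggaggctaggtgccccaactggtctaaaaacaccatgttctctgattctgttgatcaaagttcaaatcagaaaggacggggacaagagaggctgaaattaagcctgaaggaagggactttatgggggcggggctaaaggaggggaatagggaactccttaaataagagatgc
Brox (chr1:183297294-183297543, minus strand): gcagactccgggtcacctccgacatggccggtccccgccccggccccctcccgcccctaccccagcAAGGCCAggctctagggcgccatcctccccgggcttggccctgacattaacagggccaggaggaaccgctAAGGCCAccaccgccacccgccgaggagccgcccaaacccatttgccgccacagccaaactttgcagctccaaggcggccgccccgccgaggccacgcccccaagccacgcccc
In Gal the match began 236 bases before the gene's start, in Gper1 79, in Hhat 248 and in Lrrc4b 161. Brox held the motif at 184 and 114 bases before its start.

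The dye orientations gave different calls when each was fitted alone. Orientation coincides with the 2 dates in the labels' descriptions, whose meaning is not stated, so each pair has 1 array of each date, and the values per orientation are also the values within a date. With the transgenic sample in Cy3, 31 of 21845 features passed an adjusted p of 0.05 (0.142%), and with it in Cy5, 222 of 21610 did (1.03%). Of the 30 features called in both, 28 had opposite signs. Of the 222 called with the transgenic sample in Cy5, 157 had the opposite sign in the other orientation. Dye and date cannot be told apart here, and the mean over both orientations is the value reported elsewhere.

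Gal and Hdc were the features called in both orientations with the same sign. Both orientations hold the same pairs of mice, and a fit of 1 orientation does not separate a probe's dye effect from the ratio. In the fit of the mean over both orientations neither was called, each with a limma adjusted p of 0.156. Gal was at 1.20 with the transgenic sample in Cy3 (limma adjusted p 0.0343) and at 1.15 with it in Cy5 (adjusted p 0.0413). Hdc was at -1.51 (adjusted p 0.0338) and at -1.47 (adjusted p 0.00753). H2-K1, a class I antigen presentation gene, shows the other case, with means of -0.86 in the first orientation and 1.80 in the second. Lss, lanosterol synthase of the cholesterol pathway, was at 0.16 and -1.45. Nr5a1 was negative on the 3 arrays of each orientation.

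**Figure D2:**
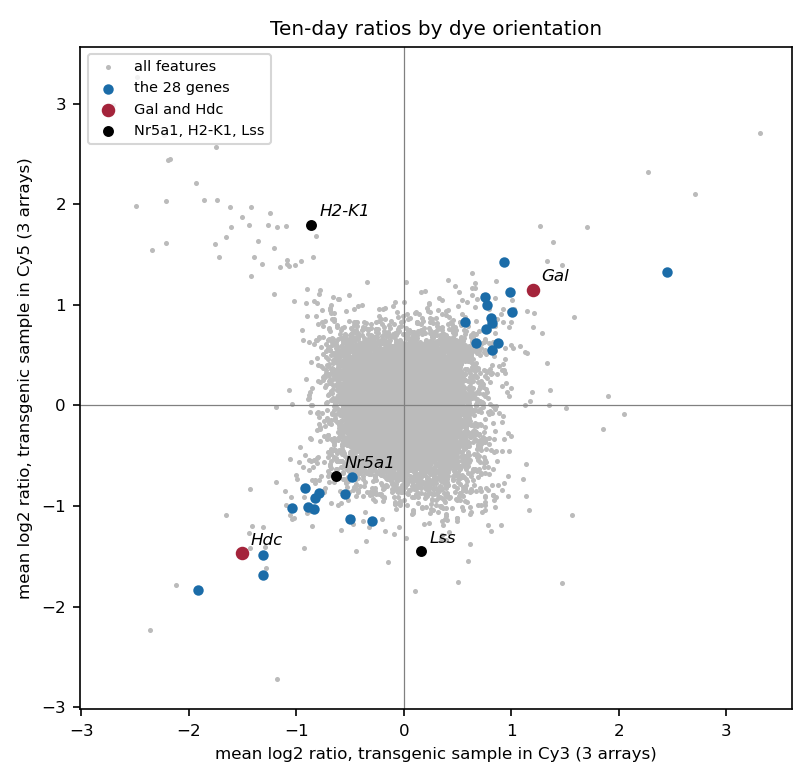
Mean log2 ratio of each feature over the 3 ten-day arrays with the transgenic sample in Cy3 (x axis) against the 3 with it in Cy5 (y axis). Gray points are all features, blue the 28 genes, red Gal and Hdc, black Nr5a1, H2-K1 and Lss; the 28 genes and Nr5a1 lie in the quadrants of equal sign, and H2-K1 (-0.86 and 1.80) in one of opposite sign.

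Genes of the cortex showed small ratios as groups. Over all features, the comparison for every list below, 4.25% were positive and 4.09% negative at an unadjusted p under 0.05. Of 18 listed genes of steroid synthesis 11 were measured, 2 positive and 9 negative, with a median of -0.13 against -0.01 over all features, and 1 had an unadjusted p under 0.05. The list's median was -0.42 in pair 11, -0.04 in pair 13 and 0.15 in pair 15, and 0.0508 without pair 11. Star, which brings cholesterol into mitochondria, had ratios of -0.42, 0.17 and 0.15, and Cyp11a1, the side-chain cleavage enzyme, had -1.01, 0.02 and 0.80. Both had signs that differed between pairs and means near 0 (-0.03 and -0.07). Cyp21a1, the 21-hydroxylase, had -3.18 in pair 11, -3.96 in pair 13 and 0.24 in pair 15, with both male pairs far below the female pair (mean -2.30 ± 2.24, adjusted p 0.505). Cyp17a1, which is little used in the adult mouse adrenal, was at -0.13, -0.17 and -0.09.

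Among the 15 measured genes that receive ACTH and related signals, 3 were positive and 12 negative, with a median of -0.08 (-0.20 without pair 15 and -0.19 with the transgenic sample in Cy3). Of these, 1 positive and 2 negative genes had an unadjusted p under 0.05. Crem, a cAMP-responsive transcription factor, had -2.62 in pair 11, -0.38 in pair 13 and -1.05 in pair 15. Nr4a1, an orphan nuclear receptor induced by ACTH, had -3.24, -0.01 and -0.81, so its mean of -1.35 ± 1.68 rested largely on pair 11. Pde4d, a cAMP phosphodiesterase, had 0.49, 0.33 and 0.32, but a mean of -0.19 where the transgenic RNA was in Cy3. The ACTH receptor Mc2r had a mean of -0.16.

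The 15 measured transcription factors of the cortex were split, 10 positive and 5 negative, with a median of 0.02 (-0.05 with the transgenic sample in Cy3). Apart from Nr5a1 itself, Nr2f1 (COUP-TFI) had an unadjusted p under 0.05, with 0.02, 0.36 and 1.19 in pairs 11, 13 and 15. Nr0b1, which encodes the SF-1 partner DAX-1, had a mean of -0.20, Gata6 0.00 and Wt1 0.03. The 20 measured Hedgehog and Wnt genes of the capsule were evenly divided, 10 positive and 10 negative, none with an unadjusted p under 0.05. Those with the largest means were Dlk1, a Notch-family ligand of the capsule (0.43 ± 0.57), and Apcdd1, a Wnt inhibitor (0.33 ± 0.12).

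Of 10 X-zone markers 9 were negative, with a median of -0.16, and none had an unadjusted p under 0.05. Their median was -0.24, -0.16 and -0.02 in pairs 11, 13 and 15, -0.0225 without pair 11 and -0.0766 without pair 13. Pik3c2g, a lipid kinase of the X-zone, had -1.92 in pair 11, -0.90 in pair 13 and -0.12 in pair 15. Akr1c18, the X-zone enzyme that breaks down progesterone, had -1.47, -0.27 and 0.56. Vnn1, the pantetheinase vanin-1, had -1.18 in pair 11, -2.89 in pair 13 and 1.68 in pair 15, negative in both male pairs and positive in the female pair (mean -0.80 ± 2.31). With 1 female pair, sex cannot be tested.

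Among genes of the medulla more members had positive than negative means, against 10451 positive and 11062 negative among all features. Of 12 measured genes that make and load catecholamines, 9 were positive. Of those 9, 5 had an unadjusted p under 0.05 and 4 were positive on all 6 arrays. Among all features 4.25% were positive at that p and 3.95% were positive on all 6 arrays. The list's median was 0.25, against -0.01 over all features, and 0.16 with arrays centred on their median. By pair it was 0.02 in pair 11 (6 positive and 6 negative), 0.38 in pair 13 and 0.53 in pair 15. Pnmt, which turns noradrenaline into adrenaline, had 0.75 in pair 11, 1.15 in pair 13 and 1.31 in pair 15 (mean 1.07 ± 0.29, adjusted p 0.4). Cyb561, which carries electrons into the granule for dopamine hydroxylation, had 0.78, 0.90 and 0.93 (adjusted p 0.327). Both were positive in every pair. Th, the first enzyme of the pathway, had -0.01, 0.68 and 1.34, and Dbh had -0.63, 0.42 and 0.88. Those enzymes, unlike Pnmt, were at or below 0 in pair 11. Maob had a mean of 0.47 ± 0.12 and Slc18a2, the vesicular monoamine transporter, 0.28 ± 0.06.

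Of 16 measured granin and granule-processing genes, 9 were positive with a median of 0.07 (-0.00 with arrays centred on their median, 0.16 without pair 11). An unadjusted p under 0.05 was seen for 5 positive and 0 negative genes, against 4.25% and 4.09% of all features. Besides Scg5 these were Pcsk1, a prohormone convertase (0.59, 0.59 and 0.40), Pcsk1n, its inhibitor (0.72, 0.74 and 1.16), Rab3c, a vesicle GTPase (mean 0.63 ± 0.19), and Dnajc5, a vesicle chaperone (0.44 ± 0.41). The granins Chga and Scg2 had signs that differed between pairs, with Chga, whose spots were near the scanner's limit, at -0.33, 0.04 and 0.27 and Scg2 at -1.22, -0.47 and 1.26. Among 16 measured neuropeptides and receptors, 11 were positive with a median of 0.19 (0.31 with the transgenic sample in Cy5). Npy, neuropeptide Y, had 1.89 in pair 11, 1.08 in pair 13 and 0.72 in pair 15, in the same order as Gal. Nts, neurotensin, had a mean of 0.47 ± 0.21, and Vip, a peptide of nerve fibres, was negative in each pair (-0.44, -0.63 and -0.53). Npy5r, another receptor for neuropeptide Y, had a mean of 0.23 ± 0.05 that rested on 1 orientation, with -0.43, -0.37 and -0.32 where the transgenic RNA was in Cy3 and 0.80, 0.81 and 0.89 where it was in Cy5.

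The 11 measured transcription factors of chromaffin and sympathetic cells had a median of -0.14 in pair 11, 0.12 in pair 13 and 0.57 in pair 15, where all 11 were positive. Over the 3 pairs their median was 0.06, 0.0187 without pair 15 and -0.0093 with the transgenic sample in Cy3. Hand1 had 0.49, 0.23 and 1.04, Gata2 -0.06, 0.60 and 1.12, and Phox2a 0.38, 0.13 and 0.57. Isl1 had -1.04, -0.01 and 1.01, from negative in pair 11 to positive in pair 15. Of 10 Schwann and glial genes, S100b (0.41 ± 0.26) and Fabp7 (0.40 ± 0.21) had an unadjusted p under 0.05.

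Mast cell genes had a median of -0.25, with 8 of 10 measured genes negative and 4 of them at an unadjusted p under 0.05. Among all 21513 features, 11062 had a negative mean and 4.09% were negative at that p. The list's median was -0.51 in pair 11, -0.09 in pair 13 (5 positive and 5 negative) and -0.17 in pair 15. The median was -0.13 without pair 11, -0.14 with the transgenic sample in Cy5 and -0.39 with it in Cy3. Beside Hdc, Cpa3, the mast cell carboxypeptidase, had -1.20 in pair 11, -0.55 in pair 13 and -0.80 in pair 15. Fcer1a, the IgE-binding chain of the IgE receptor, had -0.66, -0.29 and -0.59, and its partner chain Ms4a2 had -0.18, -0.21 and -0.48. All 3 were negative in every pair. Cpa3, a dim probe, rested on 1 orientation, with -0.73, 0.52 and -0.23 where the transgenic RNA was in Cy3 against -1.66, -1.63 and -1.38 where it was in Cy5. Fcer1a also had a low signal, 185.6 against 161.0 for Cpa3 and a median of 295 over all probes. Ms4a2 had -0.24, -0.57 and -0.82 against -0.11, 0.15 and -0.15, so its values lay nearer to 0 in Cy5. The growth factor receptor Kit had -0.57, 0.18 and -0.26, and the protease Mcpt4 -0.73, -0.59 and 0.15. Slc18a2, which mast cells and chromaffin cells share, was the member with an unadjusted p under 0.05 and a positive ratio.

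Among 32 measured cell cycle genes 25 had a negative and 7 a positive mean, with a median of -0.14 (-0.0658 without pair 11). The pair medians lay nearer to 0, at -0.10, -0.11 and -0.09. There were 11 positive and 20 negative members in pair 11, 10 and 22 in pair 13, and 15 and 17 in pair 15. Only Top2a, a topoisomerase of dividing cells, had an unadjusted p under 0.05 (-0.74, -0.19 and -0.26). Its sign in pairs 13 and 15 differed between orientations. Top2a was at -0.67, 0.25 and 0.15 with the transgenic sample in Cy3, and at -0.81, -0.63 and -0.67 with it in Cy5. Cholesterol synthesis and uptake had a median of -0.14, with -0.08 and 0.02 in the male pairs and -0.49 in the female pair (-0.0417 without it, -0.25 without pair 13). There, Dhcr7, the last enzyme of the pathway, was at -1.47 and Sc5d at -1.20, against 0.12 and 0.36, and 0.16 and 0.04, in pairs 11 and 13. The members with an unadjusted p under 0.05 were Lss, whose sign differed between orientations, and Nsdhl (-0.44 ± 0.20). The 31 respiratory chain genes had a median of 0.02 (-0.15 with arrays centred on their median) with members on both sides, and 4 positive and 3 negative members had an unadjusted p under 0.05. The positive ones were Ndufa4 (0.61 ± 0.19), Sdhd (0.47 ± 0.42), Cox5b (0.45 ± 0.37) and Ndufa1 (0.35 ± 0.25). The negative ones were Cyc1 (-0.61 ± 0.34), Atp5a1 (-0.35 ± 0.19, near the scanner's limit) and Ndufv2 (-0.33 ± 0.13). The 30 glutathione and peroxide genes were evenly divided, 15 and 15, and 2 positive and 4 negative members had an unadjusted p under 0.05. Gsta4 was at 0.45, 0.33 and 0.79 and Gstm2 at 0.80, 0.33 and 0.16, both glutathione transferases. Gsto1 was at -0.76, -0.61 and -1.52 and Mgst3 at -0.91, -0.32 and -0.67, with Gss (-0.33 ± 0.31) and Mgst1 (-0.27 ± 0.17) nearer to 0.

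Other lists had medians between -0.17 and 0.09. These were glucocorticoid response, clock, interferon, gonadal-type, imprinted, ribosomal, stress, erythroid, lymphocyte, macrophage, endothelial, capsule and fibroblast, kidney, pancreas, skeletal muscle and lymph node genes, and the immediate early genes. Their members with an unadjusted p under 0.05 lay on both sides of 0 (Nr4a1, given above, was the immediate early gene among them). Of 19 endothelial genes, Pecam1 was positive (0.19, 0.48 and 0.38), whereas Egfl7 (-0.34, -0.65 and -0.68) and Emcn (-0.36 ± 0.18) were negative. Of 16 muscle genes, the myosin light chain Myl1 (0.85, 1.30 and 0.65) and the creatine kinase Ckm (0.33 ± 0.17) were positive and the troponin Tnnc2 (-0.41, -0.29 and -0.16) was negative. Of 28 capsule and fibroblast genes, the collagens Col4a1 (-1.31, -0.47 and -0.41) and Col6a1 (-0.50 ± 0.37) were negative and Fbln2 (0.24 ± 0.17) was positive.

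Among 25 interferon genes, Rsad2 (-0.37, -0.51 and -0.47) and Gbp2 (-0.46 ± 0.51) were negative. Among 23 macrophage genes, Tyrobp, an adaptor of myeloid cells, was positive (0.98, 0.58 and 0.34), as was Vsig4 (0.37 ± 0.24). Klf1, a transcription factor of red cell precursors, had a mean of -0.71 ± 0.61. The imprinted genes Rasl11b (0.45 ± 0.19) and Plagl1 (0.26 ± 0.07), the follicle-stimulating hormone receptor Fshr (0.26 ± 0.13), the kidney phosphate transporter Slc34a1 (0.37 ± 0.28) and Rpl23 (0.26 ± 0.12) were positive. Hspa8, a chaperone near the scanner's limit, had 1.91, 0.00 and 1.03 and was positive on 4 of the 6 arrays.

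In the lists with no member at that threshold, those with the largest means were as follows. Cebpd was at -0.77 over pairs 11 and 15, the ones measured, and Ddit4 at -0.61 ± 0.94 (glucocorticoid response). The clock genes Dbp and Tef were at -0.31 ± 0.51 and 0.23 ± 0.14, the lymphocyte genes Ltb and Ms4a1 at -0.97 ± 0.32 and -0.38 ± 0.25. The pancreas genes Clps and Cpb1 were at 0.38 ± 0.59 and 0.37 ± 0.25, and Ccl21a and Cr2 of lymph node and spleen at 0.37 ± 0.39 and 0.28 ± 0.40.

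**Figure D3:**
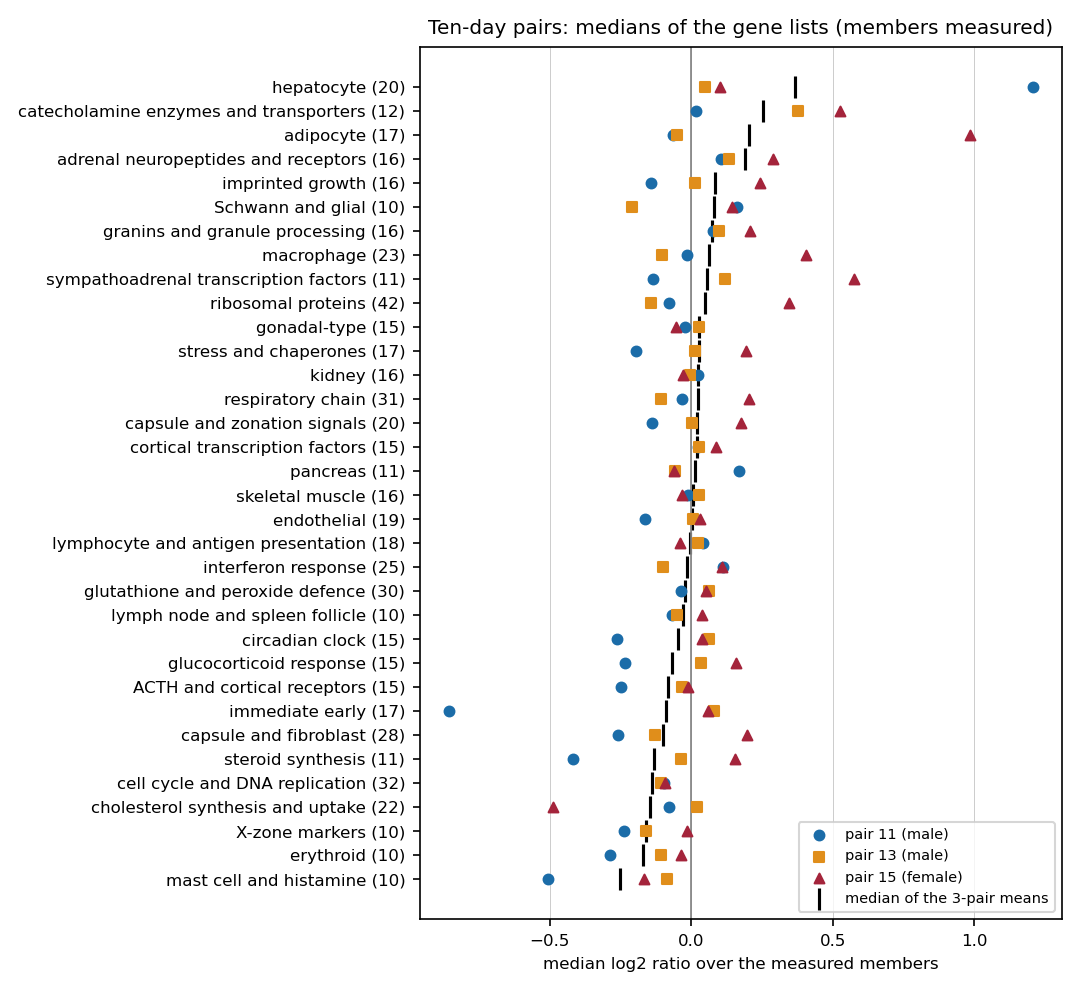
Median log2 ratio over the measured members of each of 34 gene lists (number measured in brackets) in pair 11 (circles), pair 13 (squares) and pair 15 (triangles), with the median of the 3-pair means as a black bar. The hepatocyte list (1.21) and the immediate early list (-0.86) stand apart in pair 11 and the adipocyte list (0.99) in pair 15.

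The pairs differed in how many genes had large ratios. A ratio of at least 1 in size was found for 366 of 17697 named genes in pair 11 (127 positive, 239 negative), 71 of 17760 in pair 13 and 291 of 17770 in pair 15 (200 positive, 91 negative). The SD over genes was 0.38, 0.26 and 0.33. Across genes, which are not independent replicates and share arrays, r was 0.26 between pairs 11 and 13, 0.25 between 13 and 15 and -0.07 between 11 and 15. The genes named next were chosen for the gap between 1 pair and the others, so these gaps are a description.

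Pair 11 stood apart in liver genes. Alb, serum albumin, had 6.73 in pair 11 against 1.70 and 0.60 in pairs 13 and 15, and Ahsg, fetuin-A, had 5.56 against 0.89 and 0.43. Fgg (3.22), Apoh (3.23) and Fabp1 (2.43) lay between -0.25 and 0.14 in the other pairs. Ces1c (2.43) and Apoc2 (2.29) were likewise high in pair 11, and Apoc1 had 2.86 against -2.81 and -1.52. Of 20 measured hepatocyte genes 19 were positive in pair 11, with a median of 1.21, against 12 positive with a median of 0.05 in pair 13 and 14 with 0.10 in pair 15. In the 3-pair mean 18 of 20 were positive with a median of 0.37 (0.0625 without pair 11), and 4 had an unadjusted p under 0.05 (Alb, Ahsg, Ttr and Trf). Kidney and pancreas genes had medians of 0.02 and 0.17 in that pair. The part of liver transcripts in other results of pair 11 was not tested.

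Immediate early genes, which respond within minutes to stimulation, were at the other end of pair 11. Fos had -2.70 in pair 11 against 0.67 and 0.52, Egr1 -1.50 against 1.03 and 1.28, and Dusp1 -1.15 against 0.85 and 0.62. Of 17 measured, 15 were negative in pair 11 with a median of -0.86, and the medians in pairs 13 and 15 were 0.08 and 0.06. Clock genes were at -0.26 and glucocorticoid response genes at -0.23 in that pair. The chemokine receptor Ackr3 had -1.89 against 0.68 and 0.20. The other genes farthest below in pair 11 were H2AFZ (-2.07), Rock1 (-1.91), Zcrb1 (-1.70) and Sod1 (-1.23), all positive in pairs 13 and 15.

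Pair 13 had the fewest large ratios. Sik1, a kinase induced by cAMP, had 2.43 in that pair against -0.63 and -1.03, and the ribosomal protein gene Rps28 had 2.77 against 1.34 and 0.18. D1Ertd471e (1.78), Trim56 (1.72), Cyth3 (1.28), Deptor (0.79) and Ptp4a2 (0.56) were also highest in pair 13. In the other direction, Aldh4a1, a mitochondrial enzyme of proline breakdown, had -2.00 in pair 13 against 2.31 and 1.65, and Elfn1 -2.71 against -0.46 and -0.95. The globin gene Hba-a1 had -1.82 against -0.41 and 0.62 and Rps23 -1.21 against 0.36 and 0.26, both with spots near the scanner's limit. Lrrc66 (-1.96), Lao1 (-0.82) and Necap2 (-0.79) were negative in pair 13 and positive in the others.

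Pair 15, the female pair, stood apart in fat genes. Adipoq, adiponectin, had 5.13 in pair 15 against -1.32 and 0.71 in pairs 11 and 13, Cidec, a lipid droplet protein, 2.94 against -0.23 and 0.43, and Fabp4 2.73 against 0.47 and 0.95. Ucp1, the uncoupling protein of brown fat, had 2.08 against -0.30 and -0.18. Of 17 measured adipocyte genes 13 were positive in pair 15 with a median of 0.99, and the medians in pairs 11 and 13 were -0.06 and -0.05. Over the 3 pairs the median was 0.205, and -0.0509 without pair 15, with Fabp4 and Dgat2 (0.64 ± 0.41) at an unadjusted p under 0.05. Lep, leptin, was at 0.08 and Pparg at -0.07 in pair 15. Cox8b, which brown fat also expresses, was highest in that pair, and the part of fat transcripts in its value was not tested.

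Macrophage genes had a median of 0.41 in pair 15, with 19 of 23 positive, against -0.02 and -0.10 in the male pairs, and Retnla, a secreted protein of macrophages and fat, had 4.53 against 0.06 and 0.63. The beta-globin gene Hbb-b1 had 2.41 against -0.93 and -2.06, Apoe 1.77 against -0.57 and -0.88, and Prkd3 1.54 against -1.34 and -0.79. Cyp2f2, a cytochrome P450, had -4.21 in pair 15, -1.76 in pair 11 and 0.12 in pair 13. Adh7, an alcohol dehydrogenase, had -3.94 against -0.71 and -1.22, and Bhmt, a methyltransferase of homocysteine, -2.46 against 0.93 and -0.81. Lefty1 (-1.84), Prdx2 (-1.66), Naip5 (-1.56), Gatb (-1.55) and Xdh (-1.52) were also lowest in pair 15. Ribosomal protein genes were positive for 37 of 42 members in pair 15, with a median of 0.34, against 19 and 11 of 42 in pairs 11 and 13. Of the 42, 8 were near the scanner's limit. The list's median over the 3 pairs was 0.05, but -0.12 with arrays centred on their median, so its sign depended on the trend removal.

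**Figure D4:**
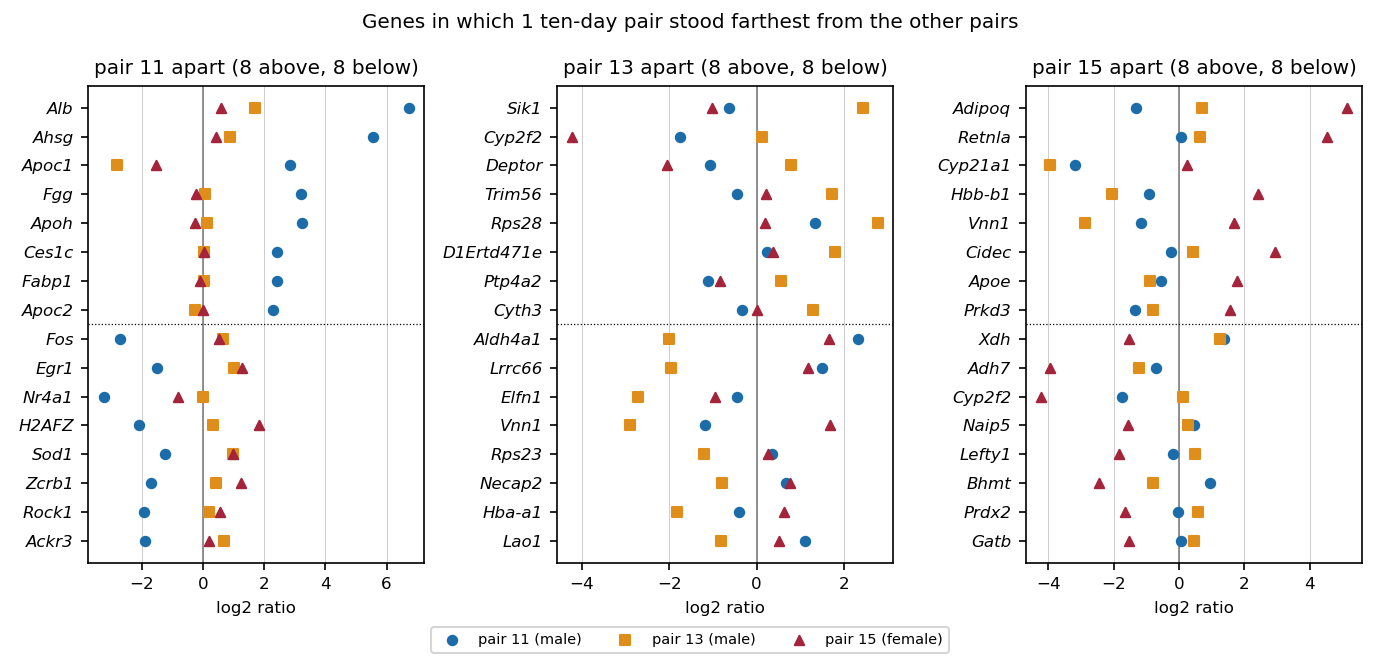
Log2 ratios of the genes in which pair 11 (left), pair 13 (middle) or pair 15 (right) lay farthest from the other pairs, 8 above (over the dotted line) and 8 below. Circles are pair 11, squares pair 13, triangles pair 15; liver genes such as Alb (6.73) lead in pair 11 and the fat gene Adipoq (5.13) in pair 15.

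At 4 months with 2 copies, the 14 positive genes had a positive mean in 14 of 14 cases, and 13 of them were positive in all 3 older pairs. The remaining gene, Lrrc4b, had no value in pair 1 and was at 0.48 and 0.72 in pairs 3 and 5. Of the 14 negative genes 11 had a negative mean at 4 months and 7 were negative in all 3 pairs. The share of all features that kept their sign at 4 months was not computed, so these counts are a description. The p that chose these genes used a spread shared by both groups, so genes with even 4-month values were favoured. Across 17882 named genes r between the group means was 0.28, a description over genes that share probes and dye orientation. The difference between the groups was tested for each gene in the same limma fit. None of 21513 features passed an adjusted p of 0.05 (0%), with the smallest adjusted p at 0.933, while 982 had an unadjusted p under 0.05 (4.56%). Age and copy number cannot be told apart in this comparison.

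Among the 28 genes, an unadjusted p of the difference under 0.05 was seen for 2 of the positive and 9 of the negative genes, a description only, since the ten-day values that chose these genes enter the difference. Hdc was at -0.32, 0.19 and -0.18 in the 4-month pairs 1, 3 and 5, all above its ten-day values. Tbrg1 was at -0.07 ± 0.30 at 4 months against -0.93 ± 0.06 at 10 days, Eif3f at 0.00 ± 0.17 against -0.83 ± 0.21, and Mgam at 0.07 ± 0.65 against -1.88 ± 0.90. Slc38a5 had 0.77, 0.31 and 0.62 in the older pairs, the opposite sign to all ten-day pairs. Nr5a1 was at -0.46, 0.11 and -0.22 at 4 months, and its difference of 0.48 had an adjusted p of 0.933 or more, like every gene's.

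Other genes were close at both ages. Gal was at 1.22 ± 0.10 at 4 months against 1.17 ± 0.47 at 10 days, a difference of 0.05 with a standard error of 0.23. Gja1 was at -1.18 ± 0.12 and Pla1a at -1.11 ± 0.54 in the older pairs, with ranges that overlap the ten-day ones. Pnmt was at 1.23 ± 0.61 at 4 months, Npy at 1.02 ± 0.55 and Scg5 at 0.76 ± 0.10, each within the spread of its ten-day pairs. Ly6d had a mean of 2.64 at 4 months, and Cox8b was lower there than at 10 days, at 0.61 ± 0.32.

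The genes with the smallest p of the difference were, beside Slc38a5 and Hdc, Mgst3 (0.71 at 4 months against -0.64 at 10 days), Zfand1 (0.49 against -0.45) and Odc1, ornithine decarboxylase, the first enzyme of polyamine synthesis (0.93 against -0.64). Mgst3, Zfand1 and Odc1 were each positive in all older pairs and negative in all ten-day pairs. The genes of both directions were chosen by that p, so their contrasts are a description. In the other direction, Epb41l3, a membrane skeleton protein, was at -0.98 at 4 months and -0.13 at 10 days, and Lilrb4a, an inhibitory receptor of myeloid cells, at -0.63 and 0.45. H2-K1 was at -1.49 and 0.47, Sulf1, a heparan sulfatase, at -0.73 and 0.15, and 4933409K07Rik at -1.36 and 0.47. The ten-day mean of H2-K1 averages opposite signs of the dye orientations, as given above. Lymphocyte and macrophage genes had ten-day medians of -0.00 and 0.06, and 4-month medians of -0.73 and -0.53. The 4-month pairs differed, with pair 3 the lowest in both lists. In pairs 1, 3 and 5 the medians were -0.05, -1.86 and -0.27 for lymphocyte genes and -0.16, -0.88 and -0.40 for macrophage genes.

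**Figure D5:**
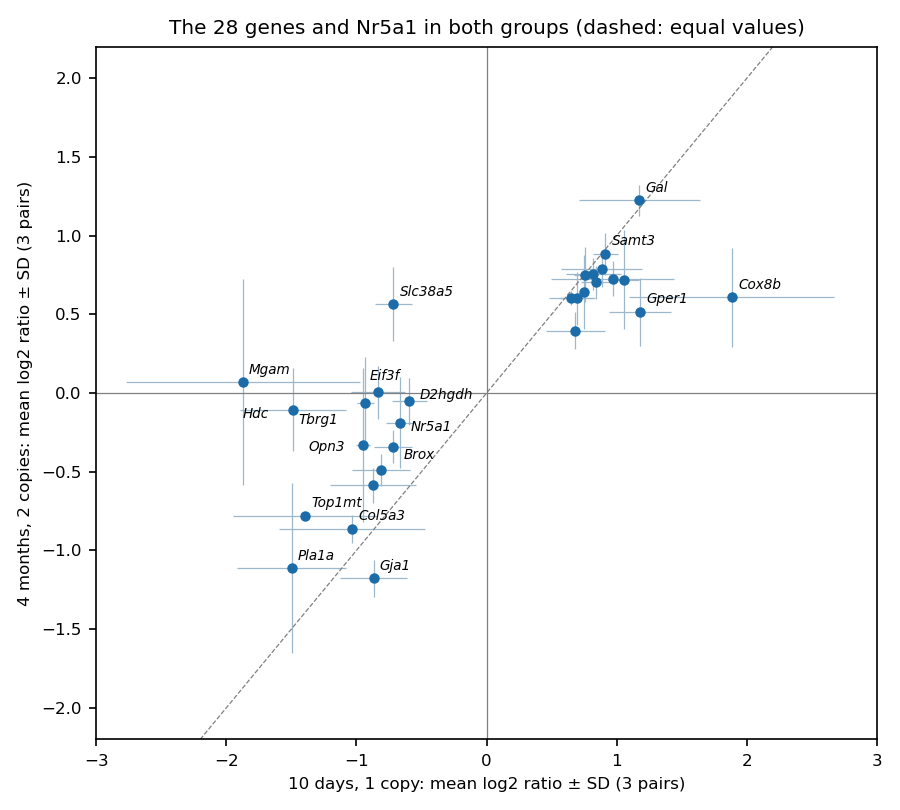
Mean log2 ratio ± SD over 3 pairs at 10 days with 1 copy (x axis) against 4 months with 2 copies (y axis) for the 28 genes and Nr5a1; the dashed line marks equal values. The positive genes lie in the upper right, and Slc38a5 (-0.72 at 10 days) is the negative gene farthest above 0 at 4 months.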

How the data were processed

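Adrenal RNA of 6 transgenic mice was measured against that of 6 wild-type littermates on 12 two-colour arrays of 25344 spots. The authors deposited 1 log2 ratio per spot, uncentred, with array medians of -0.68 to -0.22 (transgenic sample in Cy3) and 0.74 to 1.15 (in Cy5) at 10 days; no source used here gives the scanner, the background correction or the direction of the ratio. Where the transgenic sample was in Cy3 (6 arrays), 2 to the power of the value was a ratio of whole numbers up to 65535 for 100% of spots (relative tolerance 1e-12), against 0.203% to 0.724% under bases e and 10. Each probe's signal was recovered from these numbers, up to a common factor, as the 75th percentile over the 6 arrays. These values kept an offset and a trend on signal, so a loess curve on signal (span 0.3) was subtracted from each array, the arrays of a pair were averaged, and probes of a gene were averaged.

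Of the probes, 21082 had 1 gene symbol in the platform annotation, 30 had several and 4232 had none. limma 3.58.1 (R 4.3.3) fitted a mean per age group to the 6 pair values of each feature with at least 2 pairs in each group (4 residual and 3.852 prior degrees of freedom), with Benjamini-Hochberg adjustment over 21513 features. The fit was also run on simulated data in which all features shared the same spread between pairs. Real genes differ in that spread, so the simulation does not show how the fit handles it. Pairs are separate mice, their number limits the precision, and genes with a missing pair rest on fewer values. Features with a recovered signal above 32768 are called near the scanner's limit.

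The text names the 14 genes of smallest p in each direction with the same sign on all 6 arrays, 8 genes per pair and direction by their gap from the other pairs, 5 per direction for the difference between groups, members of 34 lists with an unadjusted p under 0.05 (otherwise the 2 largest), and Nr5a1; other list members are examples chosen with their values known. The genes with a ratio of at least 1 in every pair were picked after their values were seen. The members and lists were chosen with earlier results of these data known. Alternatives covered the trend removal, the dye orientation, the moderation, filters on dim, bright and missing spots, the choice of probe, and each pair left out.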

Additional observations from a re-analysis of the deposited data

How the results depend on the processing

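The age groups hold different mice, so no pairing across the groups was possible. Each value is itself a ratio within a pair of littermates. The number of features at an adjusted p under 0.05 at 10 days was 31 with the transgenic sample in Cy3 and 222 with it in Cy5, and without each pair in turn it ran from 0 to 1 (Top1mt, without pair 11). It was 0 with median centring, a loess span of 0.6, the ten-day pairs alone, an ordinary linear model (1689 features at an unadjusted p under 0.05), or the filters on dim, bright or missing spots and on probes. The difference between the groups gave 0 in every alternative run. The sign differed in 57 of 970 combinations of the 162 genes named by the rule with 6 alternatives, and in 0 of the 168 that concern the 28 genes. Those 28 were chosen for the same sign on all 6 arrays. Taking 1 orientation or leaving out a pair could therefore not change their sign, and only median centring could.

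The following list medians moved by more than the spread between pairs, and the cause was not tested. With arrays centred on their median, they were 0.0943 for cortical transcription factors, -0.0033 for granins, -0.18 for cell cycle, -0.13 for glutathione, 0.0889 for gonadal-type, -0.15 for respiratory chain and 0.0489 for skeletal muscle genes. With the transgenic sample in Cy3, they were -0.0503 for cortical transcription factors, -0.28 for X-zone markers, -0.0725 for cell cycle, -0.27 for circadian clock, -0.0862 for gonadal-type, -0.34 for erythroid, -0.0852 for lymphocyte, -0.03 for kidney and 0.079 for skeletal muscle genes. With it in Cy5, they were 0.10 for cortical transcription factors, 0.31 for neuropeptides, -0.19 for cell cycle, 0.11 for interferon, 0.17 for gonadal-type, 0.13 for lymphocyte and 0.0635 for lymph node genes.
Leaving out each pair in turn gave medians from 0.0169 to 0.0636 (cortical transcription factors), -0.20 to -0.0225 (X-zone markers), 0.0516 to 0.16 (granins and granule processing), -0.16 to -0.0658 (cell cycle and DNA replication), -0.0305 to 0.0295 (gonadal-type), -0.31 to -0.13 (erythroid), -0.12 to 0.0258 (endothelial), -0.0517 to 0.0425 (kidney) and -0.0544 to 0.0372 (lymph node and spleen follicle).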
